A study of Mus musculus with 4 samples.

Results

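The genes of the nuclear pore and of nuclear transport were analysed in the livers of mice given conjugated linoleic acid (CLA), a PPARα antagonist, or both. The members were chosen by gene symbol: every row named as a numbered nucleoporin (Nup), importin α (Kpna) or importin (Ipo), together with Tpr, Ranbp2, Rae1, Aaas, Sec13, Seh1l, Pom121, Nupl1, Nupl2, Tmem48 (also called Ndc1), Kpnb1, Xpo1 and Ran. This gave 48 of the 15500 listed genes. The symbols alone picked the members, but the family was selected with its levels in these libraries already known, so every level and ratio below is a description, with no test. Of the 48 members, 45 had a mean level of at least 1 FPKM (mapped fragments scaled by transcript length and by library depth), and so did 10355 of all genes. The other members, Nup210l, Nup62cl and Nup62-il4i1, are given by their values only and are left out of all counts of levels and ratios.

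Each condition was measured in 1 RNA-seq library of liver tissue from male Kunming mice, bought at 5 weeks of age and housed before treatment. Vehicle mice ate chow with 1.5% (w/w) linoleic acid, and CLA mice ate chow with 1.5% (w/w) CLA, a mixture of isomers of linoleic acid, in its place. GW6471, which blocks the fatty acid receptor PPARα, was injected daily at 20 mg/kg body weight. Mice given it ate the linoleic acid diet (GW6471) or the CLA diet (CLA+GW6471), and the diets lasted 28 days. Groups held 6 mice, livers of the feeding study were taken at zeitgeber time 8 h, and the sources used here do not say how many mice gave the RNA of a library. Vehicle injection was given where it applied, and the treatments of the GW6471 libraries rest on the labels alone. With 1 library per condition, the difference between animals cannot be estimated and no p-value is given.

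The nuclear pore complex is a large channel through the nuclear envelope, built of many copies of each of its proteins, the nucleoporins. Structural rings hold the channel in the membrane, nucleoporins rich in phenylalanine-glycine (FG) repeats fill it, and filaments and a basket extend from its faces. Importins and exportins bind cargo and cross the FG barrier, and the small GTPase Ran, bound to GTP in the nucleus, sets the direction of transport. In liver, metabolic nuclear receptors, PPARα among them, and clock proteins act in the nucleus and depend on this machinery to enter it.

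The table holds no counts, and the depth estimated from the steps of its lowest values was 18847997 to 19296170 reads, a ratio of 1.024 between the deepest and the shallowest library. Intervals below are 95% exact Clopper-Pearson intervals from reads estimated in this way, so they are rough and leave out every error but that of counting reads. Against the label of liver, of the 13 listed hepatocyte markers 6 had a mean of at least 1 FPKM, while Ttr, Fga, Cyp2e1 and Cps1 were at 0.11 FPKM or below in every library. The summed level of the 13 markers was 1022, 1892, 1546 and 952 FPKM in Vehicle, CLA, GW6471 and CLA+GW6471, so it was highest in CLA. Most of this sum was Alb, with 679.53, 1321.55, 1067.32 and 620.17 FPKM in the same order. Of the 6 markers with a mean of at least 1 FPKM, 5 were higher in CLA than in Vehicle, among them Alb (679.53 and 1321.55 FPKM in Vehicle and CLA), Trf (221.83 and 351.19) and Fgb (45.22 and 138.03), and Hnf4a (54.53 and 47.31) was lower. Of the 4 listed macrophage markers, Cd68 stood at 23.43, 35.64, 24.87 and 24.37 FPKM in the same order, highest in CLA, while Emr1, Csf1r and Cd163 stayed at 0.91 FPKM or below. Of the 3 listed genes of the blood cell list, Hba-a1, an α-globin gene of red cells, stood between 1.80 and 2.02 FPKM and the leukocyte markers Cd79a and Ptprc stayed at 0.15 FPKM or below, and none of the 5 listed endothelial markers had a mean of 1 FPKM. The cholangiocyte markers did not share a direction, with Spp1 at 372.04 FPKM in Vehicle and 574.44 in CLA and Sox9 at 54.74 and 34.72, and Dcn, the one stellate or fibroblast marker with a mean of at least 1 FPKM, stood at 1287 and 1506. Sprr1a, a marker of stratified epithelium, held the highest level of the table, from 15810 FPKM in CLA to 26116 FPKM in CLA+GW6471, and made up nearly all of the sum of its 8-gene list (15864 and 26180 FPKM). Krt5 of that list went the other way, with 4.29 FPKM in CLA and 2.99 FPKM in Vehicle, and Krt14, Krt6a, Krt17 and Trp63 stayed at 0.10 FPKM or below. In bulk tissue, fewer cells of a type and less RNA per cell cannot be told apart, and the part of these marker differences in the results below was not tested.

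The promoters of 40 of the 48 members were found in RefSeq (GRCm38.p6), and 6 are shown as the 250 bases upstream of the start site, 5′ to 3′. Ran, Nup62, Nup50 and Nup107 are shown because they hold the NRF1 motif, and Nup37 and Sec13 because they had the highest and the lowest ratio of CLA+GW6471 against CLA. Capitals mark every match, on either strand, to NRF1 (GCGCATGC), E-box (CACGTG), ETS (CCGGAAG), NFY (CCAAT), SP1 (GGGCGG) and YY1 (AAGATGGC). Ran lies at chr5:129019906-129020155 (plus strand), Nup62 at chr7:44815838-44816087 (plus), Nup50 at chr15:84923178-84923427 (plus), Nup107 at chr10:117792706-117792955 (minus), Nup37 at chr10:88146742-88146991 (plus, the upstream one of its start sites) and Sec13 at chr6:113740682-113740931 (minus).
Ran: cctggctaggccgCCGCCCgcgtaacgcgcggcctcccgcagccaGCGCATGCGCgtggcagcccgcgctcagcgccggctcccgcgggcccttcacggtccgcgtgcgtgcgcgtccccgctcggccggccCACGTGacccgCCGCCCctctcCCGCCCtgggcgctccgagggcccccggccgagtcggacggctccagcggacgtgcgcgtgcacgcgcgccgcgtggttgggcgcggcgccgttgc
Nup62: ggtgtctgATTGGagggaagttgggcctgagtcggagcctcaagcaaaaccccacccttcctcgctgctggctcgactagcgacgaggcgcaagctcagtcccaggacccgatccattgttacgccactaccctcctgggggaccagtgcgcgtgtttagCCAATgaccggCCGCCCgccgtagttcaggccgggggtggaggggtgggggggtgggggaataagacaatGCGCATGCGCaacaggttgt
Nup50: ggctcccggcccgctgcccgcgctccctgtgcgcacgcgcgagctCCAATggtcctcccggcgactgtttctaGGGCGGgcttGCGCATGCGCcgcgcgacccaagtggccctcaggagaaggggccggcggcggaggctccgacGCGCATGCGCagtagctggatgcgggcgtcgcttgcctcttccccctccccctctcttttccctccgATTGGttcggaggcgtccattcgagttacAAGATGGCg
Nup107: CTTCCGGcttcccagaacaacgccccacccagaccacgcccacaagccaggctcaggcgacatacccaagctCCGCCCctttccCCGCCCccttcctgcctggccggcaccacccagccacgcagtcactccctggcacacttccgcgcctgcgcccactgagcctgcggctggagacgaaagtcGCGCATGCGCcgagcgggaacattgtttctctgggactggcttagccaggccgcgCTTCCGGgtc
Nup37: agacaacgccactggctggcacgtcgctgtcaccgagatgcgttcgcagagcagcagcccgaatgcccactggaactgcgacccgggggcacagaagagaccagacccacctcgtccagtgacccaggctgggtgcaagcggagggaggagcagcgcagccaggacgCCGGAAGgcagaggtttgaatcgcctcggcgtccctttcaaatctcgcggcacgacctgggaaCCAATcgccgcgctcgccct
Sec13: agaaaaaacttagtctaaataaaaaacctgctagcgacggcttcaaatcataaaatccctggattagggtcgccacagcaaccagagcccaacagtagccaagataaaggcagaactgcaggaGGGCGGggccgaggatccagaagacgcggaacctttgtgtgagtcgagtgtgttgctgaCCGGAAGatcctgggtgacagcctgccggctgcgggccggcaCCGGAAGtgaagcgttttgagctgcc

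In Ran, Nup62, Nup50 and Nup107 the NRF1 motif stood as the palindrome GCGCATGCGC, in which a match on each strand overlaps the other, and Nup50 held the palindrome at 2 places. The NRF1 motif was found in 4 of 40 members with a promoter entry (10%) and in 2.56% of all 27025 RefSeq genes. With both sides kept to genes with a mean of at least 1 FPKM, it stood in 4 of 38 members (10.5%) and in 5.46% of 8414 genes. On the same footing the E-box stood in 15.8% of the members against 10.3%, and ETS in 18.4% against 17.3%. NFY stood in 47.4% against 41.4%, SP1 in 60.5% against 66.2%, and YY1 in 5.26% against 2.48%. The nuclear receptor motif AGGTCA was in 0 of 38 members against 12.7%, and the direct repeat of it that forms a PPAR response element was in 0 of 38 against 0.0357%. Matches are letters in a window of 250 bases and say nothing of binding. The promoters with an NRF1 match did not share a direction: against Vehicle, CLA had lower levels of Ran, Nup62 and Nup50 and a higher level of Nup107.

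Most members had lower levels in CLA than in Vehicle, by small amounts. Of the 45, 36 were lower and 9 higher, and the median log2 ratio was -0.19, beside -0.0071 over all 10355 genes, of which 5269 were lower and 5063 higher. On the log2 scale the members ran from -0.64 for Nupl2 to 0.53 for Sec13. Few of them were far apart: 2 of 45 were at least 1.5-fold lower, Nupl2 and Nup35, against 4.95% of all genes, and 0 were at least 1.5-fold higher, against 7.30% of all genes. By counting error alone, 29 of 45 were lower beyond their interval, against 33.5% of the 9762 genes with an annotated length, and 5 were higher, against 32.1%. These shares are not like for like, since more reads narrow an interval. The median of the mean levels was 22.7 FPKM for the members and 14.3 FPKM for all genes. The 5 higher members were Sec13, Aaas, Nup107, Xpo1 and Nup88.

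**Figure D1:**
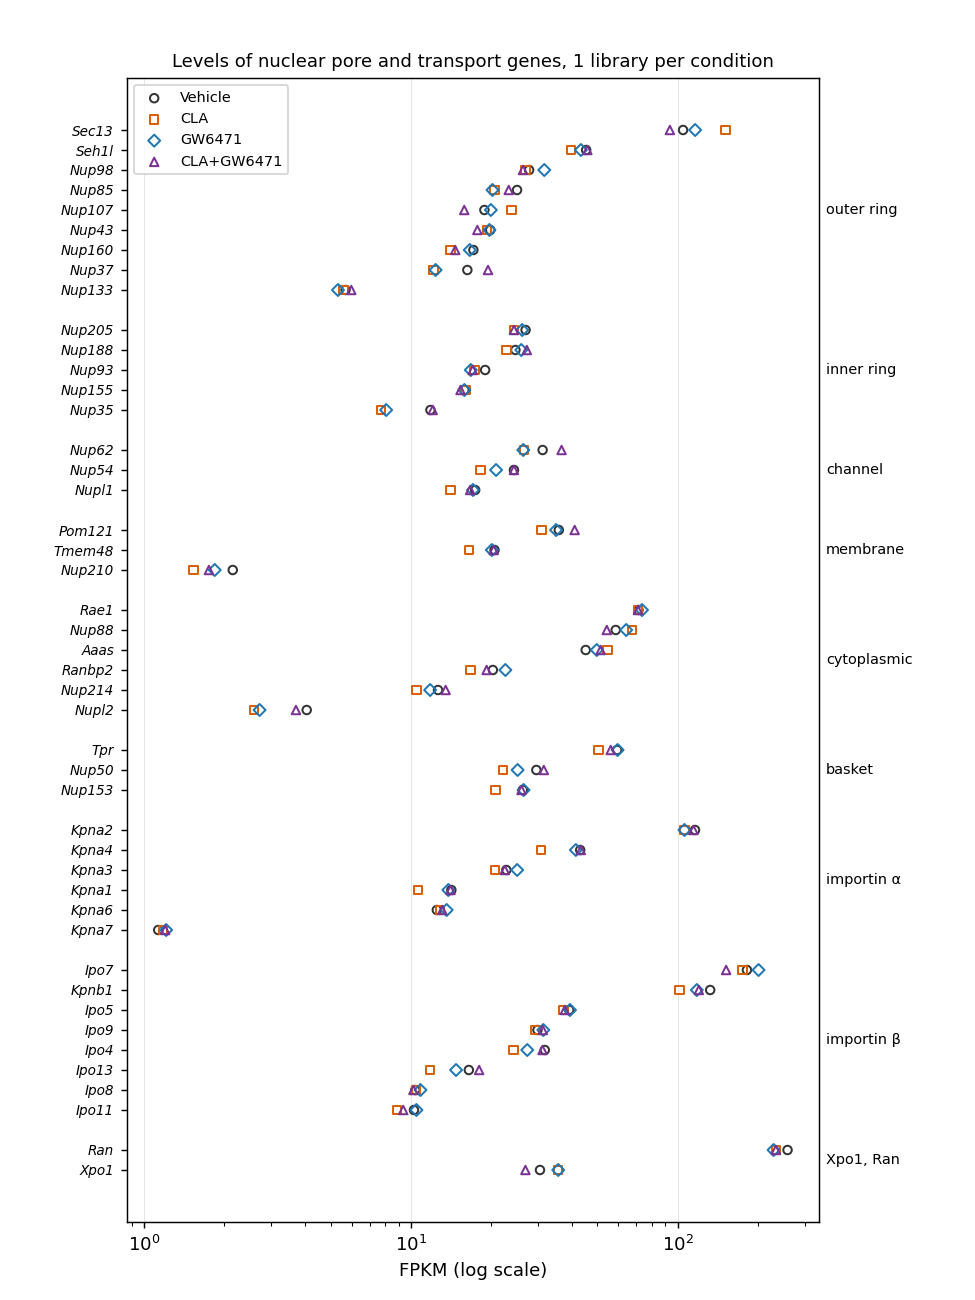
Level of the 45 members with a mean of at least 1 FPKM, as FPKM on a log axis, grouped by role, with 1 marker for each of the 4 libraries. Levels run from about 1 FPKM for Kpna7 to 258.03 FPKM for Ran in Vehicle, and the CLA marker is the lowest of its row for 25 members.

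The library with the lowest level was CLA for 25 of the 45 members (55.6%), CLA+GW6471 for 11, GW6471 for 6 and Vehicle for 3. Among all genes CLA was the lowest for 34.6%. The highest level was in Vehicle for 15 members and in GW6471 for 14 (33.3% and 31.1%, beside 18.4% and 18.9% of all genes). CLA held the highest level of only 5 members (11.1%), beside 34.7% of all genes. The spread was small: the highest level was a median of 1.24 times the lowest for the members and 1.27 times for all genes, and it reached 1.5-fold for 6 members (13.3%) and for 20.6% of all genes.

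Levels below are given in FPKM for Vehicle, CLA, GW6471 and CLA+GW6471, always in this order, and ratios as log2. Counts of a role group lower in CLA than in Vehicle stand beside 50.9% of all genes. The outer ring is the Y-shaped scaffold named after Nup107 and Nup160. Sec13, a β-propeller protein that also forms part of the COPII coat of secretory vesicles, was its most abundant member, at 104.74, 151.28, 116.25 and 93.48 FPKM. It was highest in CLA, with a ratio to Vehicle of 0.53 (interval 0.46 to 0.60), and lowest in CLA+GW6471. Nup107, a subunit of the stem of the Y, had the same order of libraries, with 18.86, 23.84, 19.94 and 15.85 FPKM and a ratio of CLA to Vehicle of 0.34 (0.22 to 0.45). Nup37, a small β-propeller subunit that binds Nup160, had 16.28, 12.18, 12.38 and 19.46 FPKM. Its levels in CLA and in GW6471 were alike and both lay below Vehicle and CLA+GW6471. Nup98, whose transcript also encodes the scaffold protein Nup96, had 27.74, 26.86, 31.62 and 26.32 FPKM and was highest in GW6471. Seh1l, which like Sec13 also belongs to a complex on the lysosome that controls mTORC1, had 45.39, 39.90, 43.38 and 45.85 FPKM. Of the 9 outer ring members, 7 were lower and 2 higher in CLA than in Vehicle, with a median of -0.046, so Sec13 and Nup107 stood against Nup37, Nup85 and Nup160 in the same subcomplex. Nup85 (lowest in GW6471, at 20.22 FPKM) and Nup160 (14.08 to 17.15 FPKM) were lower in CLA than in Vehicle, both by a ratio of -0.28, and Nup43 (17.75 to 19.84 FPKM) and Nup133 (5.33 to 5.98 FPKM) had intervals that reached across 0 for CLA against Vehicle.

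The inner ring anchors the scaffold to the pore membrane. Nup35, which binds that membrane, had 11.84, 7.73, 8.08 and 12.07 FPKM. Its levels in CLA and GW6471 lay below those in Vehicle and CLA+GW6471, with a ratio of CLA to Vehicle of -0.61 (interval -0.87 to -0.37), or 1.52-fold lower. The other inner ring members moved little. Nup205, a large scaffold protein, had 26.91, 24.35, 26.13 and 24.34 FPKM. Nup188, its paralog, had 24.65, 22.80, 25.93 and 27.20 FPKM, and Nup93, which links the ring to the channel, had 18.98, 17.34, 16.77 and 17.06 FPKM. Their log2 ratios of CLA to Vehicle lay between -0.14 and -0.11. Nup155 stayed between 15.35 and 16.05 FPKM. The median over the 5 members was -0.13 for CLA against Vehicle.

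The channel, membrane and basket members were all lower in CLA than in Vehicle. Of the FG proteins of the central channel, Nup62 had 31.17, 26.54, 26.38 and 36.71 FPKM, Nup54 had 24.34, 18.23, 20.86 and 24.33 FPKM and Nupl1 (Nup58) had 17.42, 14.06, 17.09 and 16.68 FPKM. These 3 proteins form one complex, and CLA was at or near the lowest level of each. Their median ratio of CLA to Vehicle was -0.31. Among the membrane-spanning nucleoporins, Pom121 had 35.84, 30.92, 35.01 and 41.10 FPKM, Tmem48 had 20.58, 16.55, 20.11 and 20.44 FPKM and Nup210, a glycoprotein of the pore membrane, had 2.15, 1.53, 1.84 and 1.75 FPKM. All 3 were lowest in CLA, and the median ratio was again -0.31. Of the basket, Tpr, the coiled-coil protein of its filaments, had 59.32, 50.40, 59.53 and 56.11 FPKM, Nup153, which tethers it, had 26.27, 20.79, 26.45 and 25.98 FPKM, and Nup50, which helps release import cargo, had 29.53, 22.11, 25.12 and 31.49 FPKM. The basket members were likewise lowest in CLA, with a median of -0.34. None of these 9 genes was 1.5-fold apart from Vehicle in CLA, beside 4.95% of all genes lower and 7.30% higher by that limit.

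The cytoplasmic face was mixed. Rae1, an mRNA export factor, differed by no more than 1.04-fold among 71.30, 71.15, 73.50 and 70.98 FPKM. Nup88, which anchors the cytoplasmic filaments, had 58.57, 67.30, 64.12 and 54.24 FPKM, and Aaas (ALADIN), mutated in triple A syndrome, had 45.21, 54.57, 49.72 and 51.45 FPKM. Both were highest in CLA, with ratios to Vehicle of 0.20 and 0.27. Nupl2, which works with Gle1 in the last step of mRNA export, went the other way, with 4.07, 2.58, 2.71 and 3.71 FPKM. It had the lowest ratio of CLA to Vehicle of all members, -0.64 (interval -0.97 to -0.35), or 1.56-fold lower, at a low level that rests on an estimated 224 reads in Vehicle. Ranbp2, the main protein of the cytoplasmic filaments, spanned 16.74 to 22.60 FPKM and Nup214, the partner of Nup88, 10.51 to 13.50 FPKM, both lowest in CLA. The median over the 6 genes was -0.13, with 4 lower and 2 higher.

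**Figure D2:**
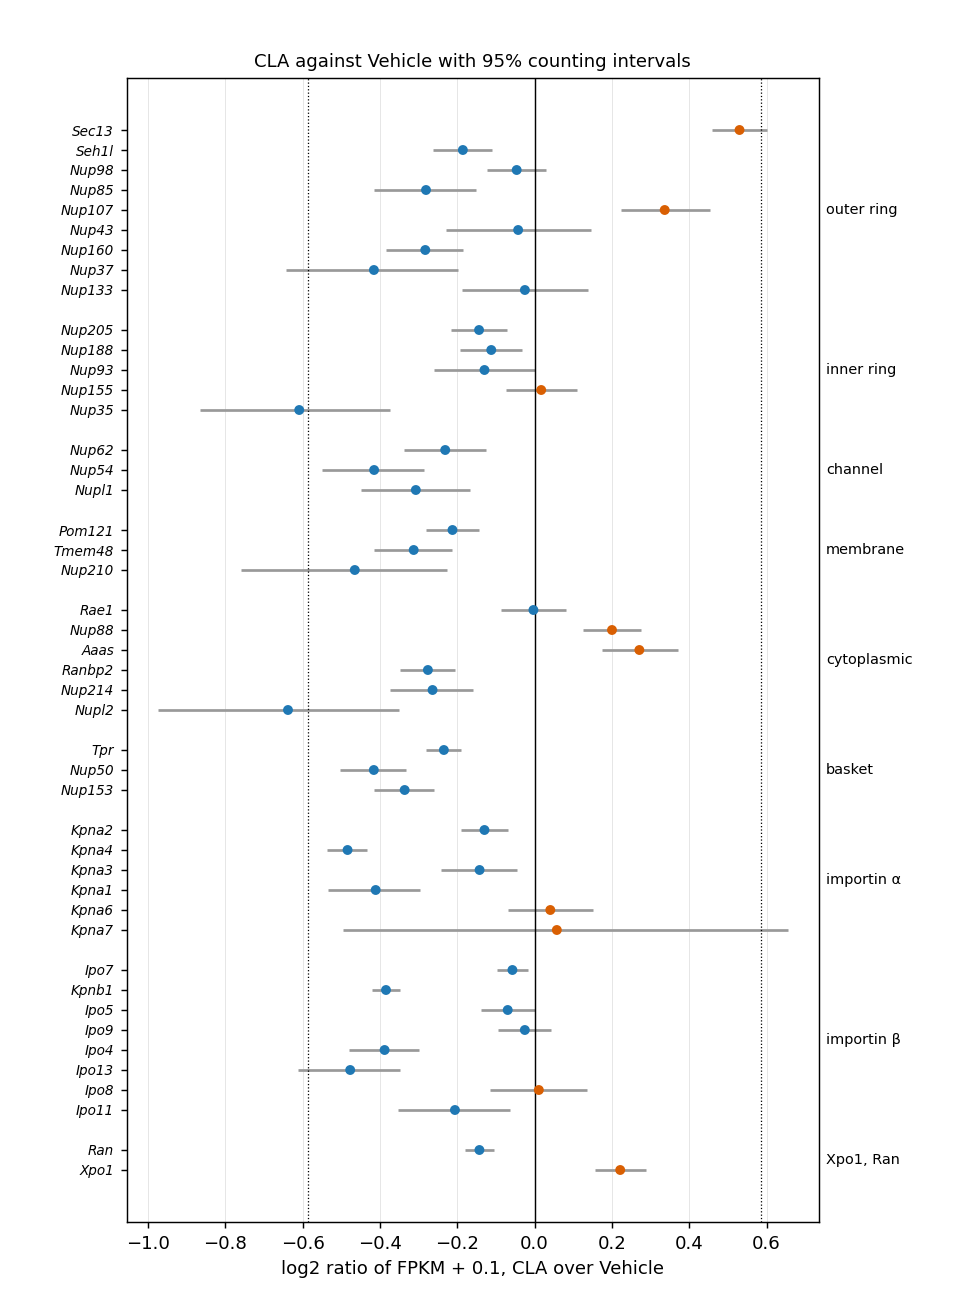
Log2 ratio of CLA to Vehicle for the 45 members, after 0.1 was added to each FPKM, with 95% counting intervals as bars and dotted lines at 1.5-fold; orange points are above 0 and blue points below. Sec13 (0.53) lies highest, Nup35 (-0.61) and Nupl2 (-0.64) lie below the lower dotted line, and all channel, membrane and basket genes lie below 0.

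Importin α proteins recognise the classical nuclear localisation signal and join the cargo to importin β. Kpna2, the most abundant of them here, had 116.11, 106.12, 106.01 and 114.60 FPKM. Kpna4 had 43.11, 30.80, 41.52 and 43.34 FPKM, so its level in CLA stood apart from the other libraries, with a ratio to Vehicle of -0.48 (interval -0.54 to -0.43). Kpna3, the closest relative of Kpna4, had 22.79, 20.64, 25.02 and 22.50 FPKM. Kpna1, like Kpna4, was lowest in CLA, at 10.64 FPKM, with the other libraries between 13.82 and 14.18 FPKM, while Kpna6 stayed within 12.51 to 13.62 FPKM. Kpna7, known from oocytes and early embryos, was near 1 FPKM in every library. The median of the 6 adaptors was -0.14 for CLA against Vehicle, with 4 lower and 2 higher. Reads of Kpna2, and of Ran below, may be shared with processed pseudogenes, so their levels are less certain.

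Of the importin β family, the receptors that carry cargo through the pore, Ipo7, an importer of ribosomal proteins among other cargo, was the most abundant, at 181.75, 174.66, 200.92 and 151.91 FPKM. Its highest level was in GW6471 and its lowest in CLA+GW6471, a ratio of -0.40 (interval -0.44 to -0.36), while CLA differed from Vehicle by only -0.06. Kpnb1, importin β itself, had 132.36, 101.38, 117.96 and 119.99 FPKM and was highest in Vehicle, with a ratio of CLA to Vehicle of -0.38 (-0.42 to -0.35). Ipo5 stayed close, with 39.21, 37.36, 39.47 and 37.75 FPKM. Ipo13, which carries cargo in both directions, had 16.49, 11.82, 14.77 and 18.02 FPKM, lowest in CLA with a ratio to Vehicle of -0.48. Ipo4 spanned 24.24 to 31.75 FPKM and Ipo11 8.89 to 10.49 FPKM, both lowest in CLA, whereas Ipo8 (10.22 to 10.86 FPKM) and Ipo9 (29.30 to 31.36 FPKM) varied little. Of these 8 receptors 7 were lower in CLA than in Vehicle, with a median of -0.14.

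Xpo1 (CRM1), the exportin for leucine-rich export signals, had 30.47, 35.54, 35.66 and 26.87 FPKM. It was alike in CLA and GW6471, above Vehicle by 0.22 and 0.23, and lowest in CLA+GW6471. Ran, the most abundant member, had 258.03, 233.72, 228.76 and 233.29 FPKM, and the 3 treated libraries lay close together below Vehicle. Among the transport factors as a whole, 12 of 16 were lower in CLA than in Vehicle, with a median of -0.14. Among the nucleoporins 24 of 29 were lower, with a median of -0.23, beside 50.9% of all genes. All role groups except Xpo1 and Ran thus had a median below 0 in this comparison.

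Of the members under 1 FPKM, Nup210l, a testis-expressed relative of Nup210, had 0.59, 0.30, 0.46 and 0.56 FPKM. Nup62cl, a gene related to Nup62, was listed at 0 in Vehicle and GW6471, at 0.09 FPKM in CLA and at 0.04 FPKM in CLA+GW6471. Nup62-il4i1, a readthrough transcript that shares exons with Nup62, was listed at 0 in Vehicle and CLA+GW6471, at 0.28 FPKM in CLA and at 0.10 FPKM in GW6471. These values are too low to compare.

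With GW6471 on the linoleic acid diet, members did not lean clearly to one side: 25 were lower and 20 higher than in Vehicle, and the median was -0.033, beside -0.0041 over all genes. None was 1.5-fold apart, with 0 of 45 higher against 3.28% of all genes and 0 lower against 2.10%. The lowest ratios were those of Nupl2 (-0.57, interval -0.90 to -0.28) and Nup35 (-0.55, -0.79 to -0.31), the same genes as in CLA against Vehicle, which shares the Vehicle library. The highest were those of Xpo1 (0.23, 0.16 to 0.29) and Nup98 (0.19, 0.12 to 0.26). The central channel (median -0.22) had 3 of 3 genes below 0, as did the membrane nucleoporins (median -0.034), beside 50.6% of all genes.

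When GW6471 was given to mice on the CLA diet, 31 members were higher and 14 lower than in CLA alone. Their median was 0.12, beside 0.0090 over all genes, of which 50.9% were higher. At least 1.5-fold higher were 3 of 45, Nup37 (0.67, interval 0.46 to 0.89), Nup35 (0.64, 0.40 to 0.89) and Ipo13 (0.60, 0.48 to 0.74), against 6.84% of all genes. At least 1.5-fold lower were 2 of 45, Sec13 (-0.69, -0.77 to -0.62) and Nup107 (-0.59, -0.71 to -0.47), against 9.15% of all genes. In the mm9 build of the files, with GENCODE vM1 gene models, these genes lie apart from each other: Nup37 at chr10:87609737-87641133 (plus strand) and Nup107 at chr10:117187680-117229761 (minus), Nup35 at chr2:80457393-80499063 (plus), Ipo13 at chr4:117567091-117587604 (minus) and Sec13 at chr6:113678061-113690737 (minus). Nupl2 lies at chr5:23670781-23689831 (plus). All 3 genes of the channel (median 0.41), of the membrane (0.30) and of the basket (0.32) were above 0, as were all 6 importin α genes (0.12), and both Xpo1 and Ran were below 0. This comparison and CLA against Vehicle share the CLA library, so a low or high value in that library enters both with opposite signs.

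CLA against Vehicle and CLA+GW6471 against GW6471 share no library, and both set the CLA diet against linoleic acid. In the presence of GW6471 the members did not lean to one side, with 22 higher and 23 lower and a median of -0.0064, beside 0.0041 over all genes. Nup37 (0.65, interval 0.44 to 0.87) was the only one at least 1.5-fold higher, 1 of 45 against 2.81% of all genes, and 0 were at least 1.5-fold lower, against 3.88%. The next highest was Nup35 (0.57, 0.34 to 0.82), and the lowest were Xpo1 (-0.41, -0.48 to -0.34) and Ipo7. A member was lower in CLA than in Vehicle but higher in CLA+GW6471 than in GW6471 in 21 of 45 cases (46.7%, beside 37.3% of all genes), and the reverse held for 8 (17.8%, beside 35.7%). Lower in both were 15 (33.3%, beside 13.5%) and higher in both was 1, Aaas (2.22%, beside 1350 of the 10355 genes). Opposite signs were thus found for 64.4% of the members and for 73.0% of all genes, and the pattern was no more frequent among nuclear pore and transport genes than in the table as a whole.

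**Figure D3:**
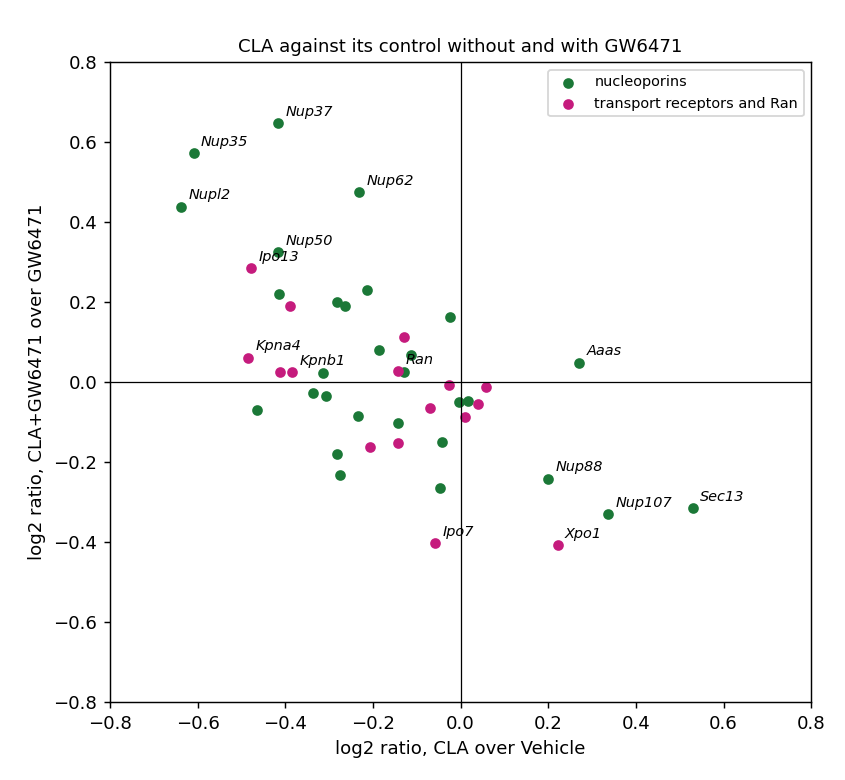
Log2 ratio of CLA to Vehicle (x axis) against log2 ratio of CLA+GW6471 to GW6471 (y axis) for the 45 members, after 0.1 was added to each FPKM; each point is a gene, green for nucleoporins and magenta for transport receptors and Ran. Of the points, 21 lie at the upper left, among them Nup37, Nup35 and Nupl2, and 8 at the lower right, among them Sec13, Nup107 and Xpo1.

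The members were closer to Vehicle in CLA+GW6471 than in CLA, as was the table as a whole. The median was -0.024, beside -0.0029 over all genes, with 30 lower and 15 higher (66.7% lower, beside 50.7% of all genes). None was 1.5-fold apart, with 0 of 45 higher against 0.512% of all genes and 0 lower against 0.628%. By counting error alone, 14 of 45 were lower beyond their interval, against 17.4% of the 9762 genes, and 7 were higher, against 15.2%. As in CLA against Vehicle, these shares are not at like levels. The highest were Nup37 (0.26, interval 0.06 to 0.45) and Nup62 (0.24, 0.14 to 0.33), and the lowest were Nup210 (-0.28, -0.55 to -0.04) and Ipo7 (-0.26, -0.30 to -0.22). The range of the members, -0.28 to 0.26, was narrower than in the other comparisons, and so was the middle 50% of all genes, at -0.095 to 0.091 beside -0.23 to 0.23 in CLA against Vehicle.

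Other genes of the same machinery were described from lists of named genes. Of 15 further transport receptors and Ran cycle genes with a mean of at least 1 FPKM, 12 were lower and 3 higher in CLA than in Vehicle, with a median of -0.21. Xpo4, an exportin, was the only one at least 1.5-fold apart (9.77 FPKM in Vehicle, 6.13 in CLA, ratio -0.66), followed by Xpo5, which exports precursors of microRNAs (-0.45), and the highest were Snupn (0.12), the importer adaptor of small nuclear RNPs, and Xpo6 (0.01), an exportin for actin. The list leaned the same way as the members in the same pair of libraries.

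Of 18 mRNA export genes, 13 were lower and 5 higher, with a median of -0.17 and none 1.5-fold apart. The shares of all genes were 50.9% lower, 4.95% at least 1.5-fold lower and 7.30% at least 1.5-fold higher. Nxf1, the main mRNA export receptor, stood at 70.96 FPKM in Vehicle and 51.71 in CLA (-0.46), and the helicase gene Ddx19b at -0.52, while its paralog Ddx19a (0.21) and Gle1 (0.23), the partner of Nupl2, lay above 0. Of 16 genes of the lamina and envelope, 11 were lower and 5 higher, with a median of -0.18. Lmna, which encodes lamins A and C, stood at 262.28 and 189.84 FPKM (-0.47) and the inner membrane gene Lemd3 at -0.36, while Syne2, a linker of nucleus and cytoskeleton, was at least 1.5-fold higher at a low level (1.31 and 2.20 FPKM, 0.71) and the lamin B receptor Lbr was at 0.26.

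The genes of proliferation did not lean the same way. Of 16, 10 were higher and 6 lower in CLA than in Vehicle, with a median of 0.07 and none 1.5-fold apart. Of all genes 48.9% were higher, and 4.95% were at least 1.5-fold lower and 7.30% at least 1.5-fold higher. Means of these 16 ran from 8.785 FPKM for Mcm5 to 76.83 FPKM for Pcna. Mki67 stood at 24.28, 22.80, 28.10 and 24.61 FPKM and Top2a at 42.17, 49.25, 50.92 and 40.71 FPKM. Whether these genes bear on the levels of the members was not tested. Within the MCM helicase, Mcm6 (0.48) lay above 0 and Mcm7 (-0.52) and Mcm3 (-0.41) below it, and the mitotic kinase Plk1 was at 0.40. In CLA+GW6471 against CLA the medians were 0.21 for the further transport genes, 0.15 for mRNA export, 0.10 for lamina and envelope and -0.11 for proliferation. In GW6471 against Vehicle they were -0.023, -0.15, -0.17 and -0.15 in the same order, beside -0.033 for the members. So mRNA export and lamina and envelope leaned lower in GW6471 as well as in CLA.

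**Figure D4:**
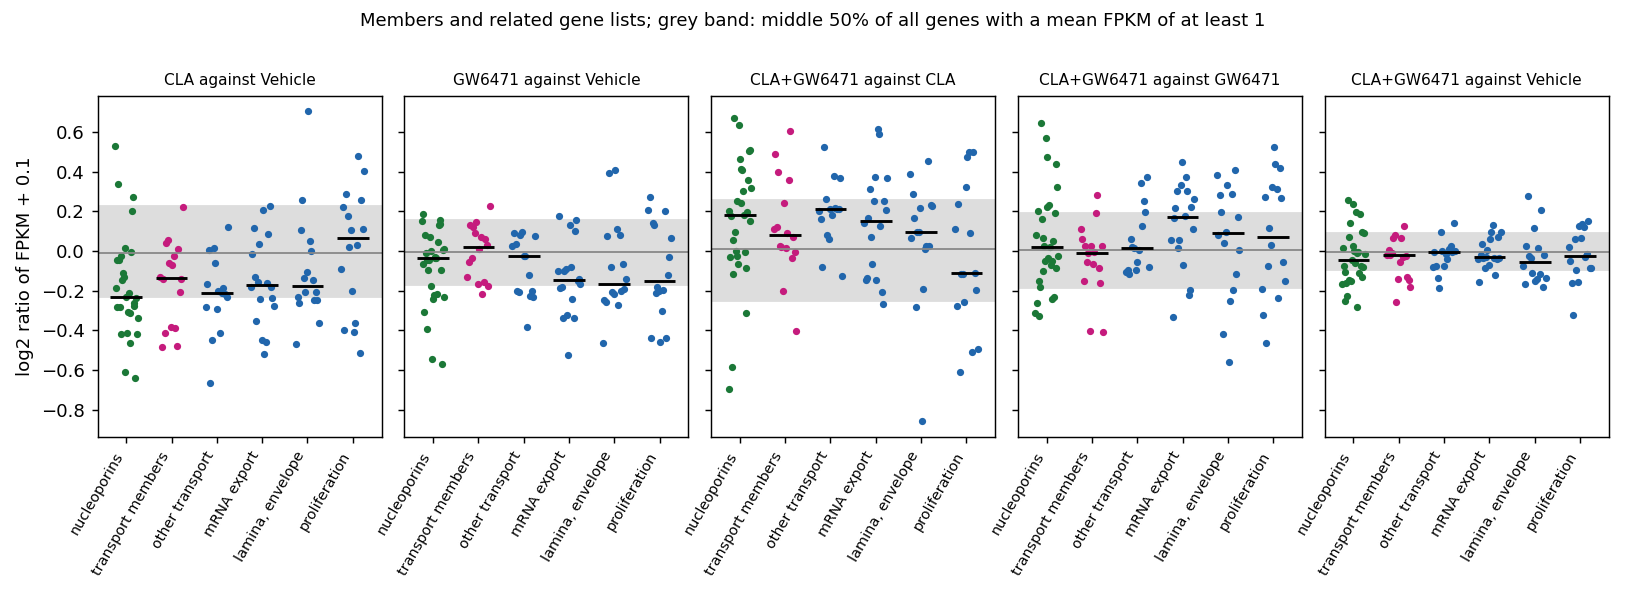
Log2 ratios, after 0.1 was added to each FPKM, of nucleoporins (green), transport members (magenta) and 4 related lists (blue) in the 5 comparisons; points are genes, black bars are medians and the grey band holds the middle 50% of the 10355 genes with a mean of at least 1 FPKM. In CLA against Vehicle the bars lie below 0 for every group but proliferation (0.07), and against Vehicle the CLA+GW6471 bars lie near 0.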

How the data were processed

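The data were 4 RNA-seq libraries of mouse liver, 1 per condition, grouped by their labels. The authors mapped reads to mm9 with BWA and Bowtie and deposited FPKM from Cufflinks with 2 decimals; the sources used here give no versions and no filter behind the rows of the table, whose header names no unit. The members and all gene lists were chosen with earlier results of these data known.

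To the deposited FPKM 0.1 was added, and log2 was taken, so ratios of low genes are understated. Genes with a mean of at least 1 FPKM over the 4 libraries were counted, and 1.5-fold was the limit for a gene set apart. With 1 library per condition no test was made, and counts and medians of the members stand beside those of all genes that pass the same filter.

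Depth was estimated from the steps between the lowest values of 603 genes that have 1 transcript of less than 1000 nt, with GENCODE vM1 lengths (NCBIM37, the mm9 assembly); 146 to 155 values were used per library. Estimated reads per gene, from the longest coding transcript, gave the 95% exact Clopper-Pearson interval of each ratio, for 9762 genes. The score of the steps, which is 1 where every value falls on whole reads, was 0.458 to 0.535. A run on simulated reads used the same lengths and formula, so it could not show an error in either. Promoters were matched to RefSeq (GRCm38.p6) by gene number, as genes with at least 1 start site that holds a motif; Kpna1, Kpna3, Kpna6, Nup210l, Nup35, Nup43, Nup85 and Seh1l had no entry.

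Members named with all 4 values were the 3 most abundant of each role, those 1.5-fold apart in a comparison or else the 2 highest and 2 lowest, and those with a 0 or a mean under 1 FPKM; of each other list, the 2 highest and 2 lowest ratios of CLA to Vehicle were named. Of the marker lists, 4 of 5 cholangiocyte and 4 of 8 stratified epithelium markers had a mean of at least 1 FPKM. Alternatives were a pseudocount of 0.01 or 1, no filter or a mean of at least 5 FPKM, scaling by median of ratios or to equal FPKM sums, and a 2-fold limit. Calculations used Python 3.11.15, with scipy 1.17.1, numpy 2.4.6, matplotlib 3.10.9 and pandas 2.3.3.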

Additional observations from a re-analysis of the deposited data

Results flagged for a closer look

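Several members differed in opposite directions without and with the other treatment, at both places by more than their counting interval and at 1 of them at least by 1.5-fold. For the CLA diet, the log2 ratios without and with GW6471 were -0.42 and 0.65 for Nup37, -0.61 and 0.57 for Nup35, and -0.64 and 0.44 for Nupl2. For GW6471, the ratios on linoleic acid and on CLA were -0.39 and 0.67 for Nup37, -0.55 and 0.64 for Nup35, and -0.16 and 0.60 for Ipo13. Sec13 had the reverse order, 0.15 and -0.69. For Nup37 and Nup35 both readings rest on the same 4 values. With 1 library per condition the differences were not tested, and the share of all genes that meet these limits was not counted. Opposite signs of any size were found for 73.0% of all genes in the comparison of the diets.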

How the results depend on the processing

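Of 100 medians and counts over the members under the alternatives, 85 stayed within 0.1 log2 (medians) or within 1.5 times (counts) of their value and 15 moved further, all of them counts of members 1.5-fold apart. With a pseudocount of 0.01, 1 member was lower in GW6471 than in Vehicle; with 1, 0 were lower in CLA than in Vehicle, and 1 was higher and 1 lower in CLA+GW6471 than in CLA. With no filter on 48 members, 2 were higher in CLA and 1 in GW6471 than in Vehicle, and 1 was lower in CLA+GW6471 than in GW6471; 3 rather than 2 were lower in CLA than in Vehicle, and 4 rather than 3 higher and 3 rather than 2 lower in CLA+GW6471 than in CLA. These come from the members under 1 FPKM that the filter leaves out. With a mean of at least 5 FPKM (42 members), 1 was lower in CLA than in Vehicle, since Nupl2 lies under that mean. Scaling to a common sum left 1 lower in CLA+GW6471 than in CLA and 0 higher in CLA+GW6471 than in GW6471, and scaling by median of ratios left 1 lower in CLA+GW6471 than in CLA. At a 2-fold limit 0 were apart in CLA against Vehicle, in CLA+GW6471 against CLA or in CLA+GW6471 against GW6471. The median of CLA against Vehicle stayed between -0.22 and -0.16, while the median of GW6471 against Vehicle turned to 0.0095 with scaling to a common sum and that of CLA+GW6471 against GW6471 to 0.0085 with no filter or the higher one. Over the pseudocounts and scalings, 610 of 620 ratios of the 31 named members with a mean of at least 1 FPKM lay within their main counting interval and the largest shift was 0.15 on the log2 scale; the ratios of the other 3 depend on the pseudocount. Of all 680 named ratios 19 changed sign, the largest of these being 0.06 in size. No paired analysis was possible because each condition has 1 library. Levels under 1 FPKM rest on few reads, and the difference between animals is unknown at any depth.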
